A study of Mus musculus with 12 samples.

Results

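The genes described here encode the nuclear subunits of the mitochondrial oxidative phosphorylation chain. They were chosen by symbol: every gene whose symbol begins with Ndufa, Ndufb, Ndufc, Ndufs, Ndufv, Uqcr, Atp5, Cox4i, Cox5, Cox6, Cox7 or Cox8, together with Sdha to Sdhd and Cyc1, and without assembly factors of the Ndufaf series or pseudogenes. This gave 86 of the 25899 genes in the deposited table. Of these, 81 had a mean level of at least 1 RPKM (reads per kilobase of exon and per 1 M reads) over the 12 libraries. They could be tested, among 12094 such genes in all. Complex I contributed 36 genes, complex II 4, complex III 9, complex IV with its alternative isoforms and relatives 20, and complex V (ATP synthase) 15. The remaining 2, Atp5s and Atp5sl, enter by their symbol and are not subunits. Ndufa4 is placed with complex IV, where its product is now assigned, and Ndufa4l2 and Cox7a2l are relatives of subunits.

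The tissue was the apical part of the first lower molar germ, taken from C57BL/6 mice at postnatal day 4, a stage at which the crown is mineralizing and root formation is about to begin. For RNA-seq, 6 libraries from Nfic-/- (null) mice were set against 6 libraries from Nfic+/- (heterozygous) littermates. These littermates carry 1 mutant copy themselves and are the only controls. Nfic encodes a nuclear factor I transcription factor needed for root development. The labels do not give the design of the mutant allele, nor whether a library held the teeth of 1 mouse or of several, so p-values measure the spread between these libraries.

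Complexes I and II feed electrons from NADH and succinate to ubiquinone, complex III passes them to cytochrome c, and complex IV hands them to oxygen. The proton gradient built by complexes I, III and IV drives ATP synthesis by complex V. Most subunits are nuclear genes imported as proteins, and a small set of core subunits is made inside the organelle from mitochondrial DNA. Ameloblasts and odontoblasts, the secretory cells of the tooth germ, are rich in mitochondria.

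Nfic was measured at 11.4, 15.9 and 24.5 RPKM (lowest, median, highest) in the heterozygous libraries and at 7.90, 11.5 and 16.5 RPKM in the null libraries. The ranges overlapped, and the mean difference was -0.52 on the log2(RPKM + 1) scale (exact 2-sided permutation test over 924 assignments, p = 0.0303). Without heterozygous library 6 or 10, or null library 5 or 6, the same exact test gave p = 0.0519, 0.0628, 0.0541 and 0.0541, and the difference lay between -0.63 and -0.41 with any 1 library left out. Library depth was 70.2 to 96.4 M reads, so 1 RPKM in a gene of 1 kb rests on at least 70.2 reads. The enamel gene Amelx took 3.40 to 13.5% of gene reads. Markers of intestine summed to 117 to 152 RPKM in libraries 8 and 9 of both genotypes and to at most 0.406 RPKM in the others, and results without those libraries are given below. All 13 subunit genes of mitochondrial DNA were listed at the floor in every library, so only the nuclear share of the chain is measured here.

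Levels differed far more between subunits than between genotypes. Complex IV held the highest transcripts. Cox4i1, an early-joining subunit of cytochrome c oxidase, averaged 236 RPKM in heterozygous and 249 RPKM in null libraries. Cox8a, its smallest subunit, averaged 221 and 236 RPKM, and Ndufa4 averaged 168 and 187 RPKM. The other genes among the 5 highest were Atp5a1, the alpha subunit of the catalytic head of ATP synthase (156 and 158 RPKM), and Ndufa1, a small membrane-arm subunit of complex I (130 and 147 RPKM). At the other end, Ndufab1, the mitochondrial acyl carrier protein that sits in complex I, averaged only 1.13 and 1.24 RPKM.

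**Figure D1:**
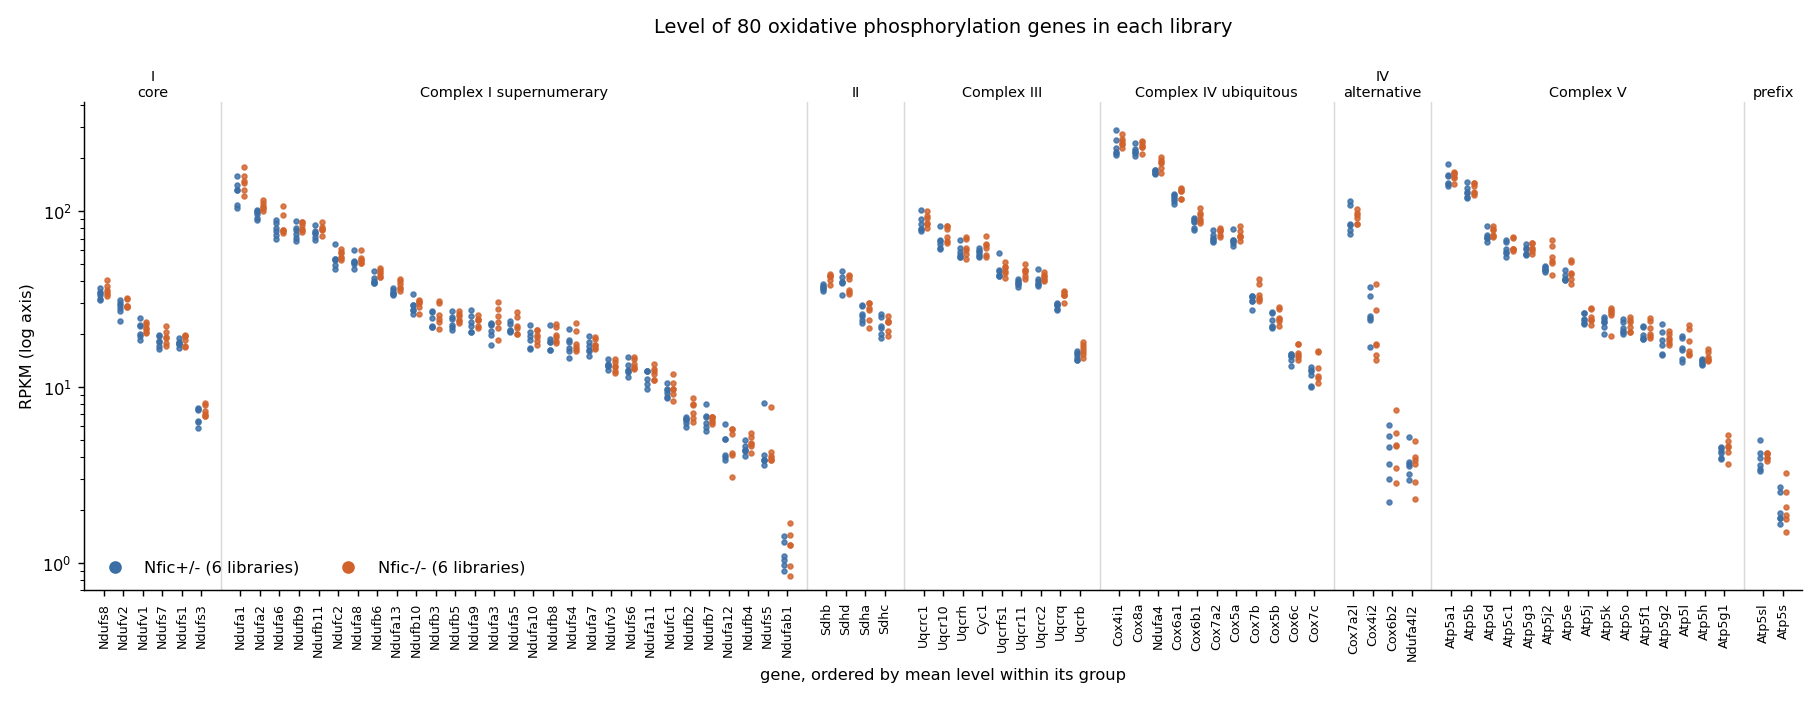
Level of 80 of the 81 tested genes in RPKM on a log axis, with 1 point per library, blue for Nfic+/- and orange for Nfic-/- (6 each), genes ordered by mean level within their group. The points of a gene lie close together and the genotypes intermingle, whereas genes of a single complex spread from 1.19 to 138 RPKM in complex I.

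Within complex I the highest mean was 117 times the lowest, although the complex holds most of these proteins in equal number. RPKM divides reads by gene length, and the merged exons in GENCODE M21 span 419 bases for Ndufa1 and 6883 for Ndufab1. The part of these lengths in the range was not tested. The 7 core subunits, which carry the flavin and iron-sulphur centres, had their lowest level at Ndufs3 (7.13 RPKM). The 29 supernumerary subunits covered the whole range. Complex II was the most even, with Sdhc at 22.6 RPKM and Sdhb at 39.4 RPKM, a 1.75-fold range. Complex III ran from Uqcrb (15.8 RPKM) to the core protein gene Uqcrc1 (87.6 RPKM), the ubiquitous subunits of complex IV from Cox7c (12.3 RPKM) to Cox4i1 (243 RPKM), and complex V from Atp5g1 (4.42 RPKM) to Atp5a1 (157 RPKM).

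Many of the lowest genes had near-identical copies elsewhere in the genome. Of the 81 tested genes, 19 had at least 1 annotated pseudogene matching 80% or more of their coding sequence at 95% identity or more. Their median level was 15.8 RPKM, and 12 of the 19 lay under 20 RPKM. The 62 genes with no such copy had a median of 37.9 RPKM, and 16 of them lay under 20 RPKM. Atp5l, a membrane subunit of ATP synthase, had the most copies (7), followed by Uqcrb and Atp5h with 3 each. Ndufab1, Cox7c, Cox6c, Atp5g2, Cox7b and Uqcr11 had 2 each. How reads matching several places were counted is not given in the sources used here, so the absolute levels of these genes are uncertain. Whether the copies lower them was not tested. Merged exon length in GENCODE M21 also differed among the 19 genes, from 616 bases for Atp5k to 6883 for Ndufab1. The part of length in the 2 medians was not tested. The identity limit was chosen after results at 3 settings had been seen.

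Promoters were searched because the members share known regulators. Nuclear respiratory factor 1 (NRF1), GABPA and YY1 are the classical activators of nuclear respiratory genes. RefSeq windows on GRCm38.p6, running from 250 bases before to 50 bases after a transcription start, were matched for 70 of the 86 members. Both strands were searched for 7 motifs, and matches of different motifs were allowed to overlap. The NRF1 palindrome, GCGCA followed directly by TGCGC, was present in 5 members (7.14%), against 1.07% of all 27025 genes with a window and 2.43% of those tested here. The YY1 motif AAGATGGCG was present in 8 members (11.4%), against 1.64% of all genes and 3.71% of those tested. The GABPA motif CCGGAAGT was present in 5 members (7.14%), against 4.31% and 9.24%. The oestrogen-related receptor motif TCAAGGTCA was found in 2 members (2.86%, against 0.466% of all genes and 0.354% of those tested) and TATAAA in 7 (10%, against 15.7% of all genes and 8.20% of those tested). For the nuclear factor I family to which Nfic belongs, the palindrome of TTGGC and GCCAA with 5 bases between them was found in 0 members (0.0444% of all genes) and the short site TTGGCA in 14 (20%, against 16.1% of all genes and 12.9% of those tested). A match describes these letters only and is not evidence of binding.

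The 5 NRF1 matches are shown with 10 bases on either side, 5′ to 3′ on the strand of the gene, to show how little the surrounding sequence is shared. Capitals mark the motif. The first base of the match lay at position -42 from the RefSeq start for Atp5g2, -50 for Atp5k, -162 for Cox6a1, -60 for Ndufa11 and 31 for Uqcrc1. In GENCODE M21 the pieces at Atp5g2, Atp5k and Uqcrc1 overlap an exon of the gene itself, that at Cox6a1 reaches an exon of the neighbouring Gm42903, and that at Ndufa11 overlaps no exon.
Atp5g2, chr15:102671070-102671099, minus strand: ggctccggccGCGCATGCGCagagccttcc
Atp5k, chr5:108434430-108434459, minus strand: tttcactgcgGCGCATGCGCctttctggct
Cox6a1, chr5:115349101-115349130, minus strand: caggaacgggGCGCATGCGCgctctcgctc
Ndufa11, chr17:56717692-56717721, plus strand: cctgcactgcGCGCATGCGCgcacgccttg
Uqcrc1, chr9:108936668-108936697, plus strand: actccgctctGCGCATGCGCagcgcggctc

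The YY1 matches had another feature in common. In 7 of the 8 members the ATG inside AAGATGGCG is the annotated start codon of the protein in GENCODE M21. The exception was Atp5j, whose match begins at position -88. How often the match holds the start codon in other genes with the motif was not counted. In all 8 members the match is on the coding strand. The 30-base pieces below show this, with the motif in capitals.
Atp5j, chr16:84835045-84835074, minus strand: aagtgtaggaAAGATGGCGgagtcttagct
Atp5j2, chr5:145191499-145191528, minus strand: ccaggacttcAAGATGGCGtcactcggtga
Atp5sl, chr7:25619430-25619459, plus strand: gttacctggcAAGATGGCGgcgcccagagc
Ndufa9, chr6:126849096-126849125, minus strand: attgtgggagAAGATGGCGgccgccgtccg
Ndufc1, chr3:51408914-51408943, minus strand: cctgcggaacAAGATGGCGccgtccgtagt
Ndufs4, chr13:114388045-114388074, minus strand: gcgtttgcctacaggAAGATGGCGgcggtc
Ndufs6, chr13:73328433-73328462, minus strand: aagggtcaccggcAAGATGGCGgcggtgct
Ndufs7, chr10:80249463-80249492, plus strand: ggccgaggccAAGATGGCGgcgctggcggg
The members with an NRF1 or YY1 match lay at very different levels, from 3.99 RPKM for Atp5sl to 123 RPKM for Cox6a1.

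Between genotypes, subunit genes stood slightly higher in null than in heterozygous libraries, and none passed the adjusted threshold. The difference was above 0 for 76 of the 81 tested members, against 48.9% of all tested genes. The members' median difference was 0.079 on the log2(RPKM + 1) scale, against -0.0028 for all tested genes. The share above 0 was larger among highly expressed genes, at 63.9% of all genes at 20 RPKM or more, and 51 of the 53 members at that level were above 0. Differences ran from -0.34 to 0.22, and 55 of the 81 were smaller than 0.1 in size, with a median standard error of 0.079. No member had an adjusted p under 0.05 (limma with Benjamini-Hochberg adjustment over 12094 genes, smallest adjusted p = 0.934), nor did any gene at all (percent called, 0). At an unadjusted p under 0.05, 8 of the 81 members were higher in null libraries, against 2.62% of all genes in that direction. Among genes at 20 RPKM or more, 7 of the 53 members were so called, against 7.02% of all genes at that level. In the other direction 0 members passed, against 2.72% of all genes. Members share their libraries, so these are not counts of independent events.

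**Figure D2:**
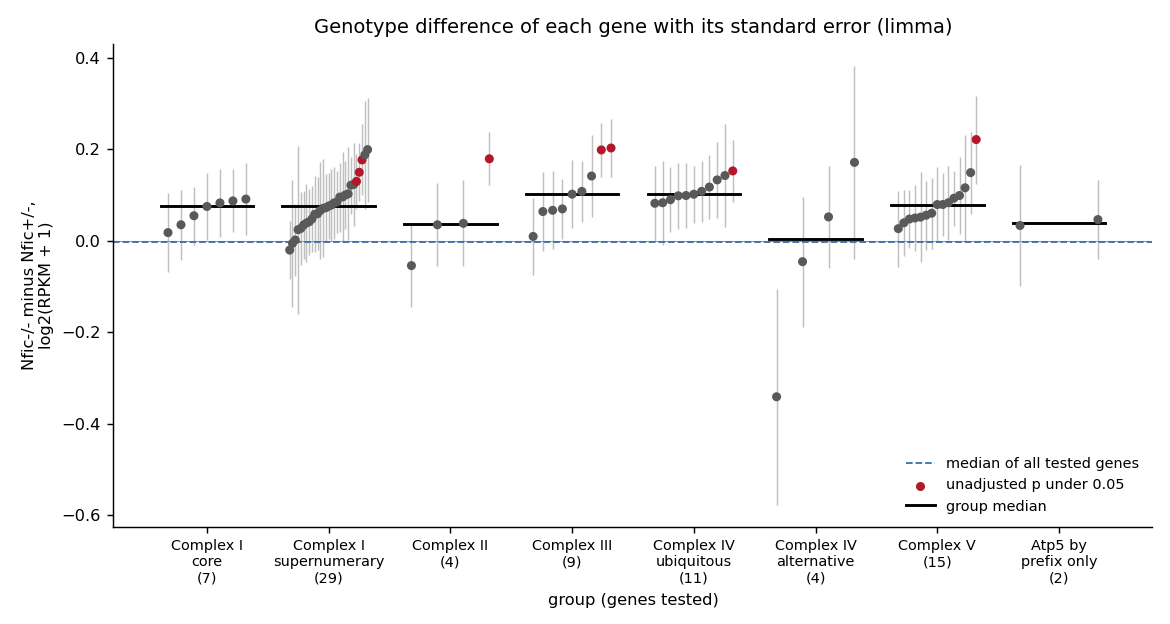
Difference between Nfic-/- and Nfic+/- libraries on the log2(RPKM + 1) scale for each tested gene with its standard error from limma, by complex, with black bars for group medians and red for an unadjusted p under 0.05. Group medians sit between 0.0033 and 0.10, above the dashed median of all tested genes at -0.0028, and 8 genes are red.

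The count of 8 depended on single libraries. It was 13 without heterozygous library 6, where the share of all genes so called was 5.37%, and 4 without heterozygous library 7, 8, 9 or 10, with shares of 1.54, 2.27, 2.32 and 1.63%. It was 5 without null library 5 or 6 (1.64 and 1.82% of all genes), 4 without null library 9 (1.96%) and 3 without null library 10 (3.41%). Among libraries 5 to 7 alone it was 0 (1.26% of all genes), with 64 of 81 members above 0, against 40.7% of all genes. Among libraries 8 to 10 alone it was 4 (1.39%), with 78 above 0, against 55.7% of all genes. Without libraries 8 and 9, which carried intestinal transcripts, it was 2 (1.10%), with 72 above 0, against 41.1% of all genes. With each library centred on its median gene, 16 members passed at an unadjusted p under 0.05, as did 4.72% of all genes, and 78 of 81 were above 0, against 61.1% of all genes.

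By complex, the median difference was 0.076 for complex I, with 34 of 36 genes above 0. All 7 core subunits were above 0, by at most 0.091. Complex II had 3 of 4 genes above 0 and a median of 0.037, with Sdhb highest at 0.18. All 9 complex III genes and all 11 ubiquitous complex IV genes were above 0, both with a median of 0.10, and the complex IV genes kept to a narrow range of 0.08 to 0.15. All 15 complex V genes were above 0. The median was 0.060 for the 5 subunits of F1, the catalytic head with its central stalk. It was 0.081 for the 10 of the peripheral stalk, rotor ring and membrane part. The differences between complexes were not tested.

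Uqcrq, a small structural subunit of complex III on the minus strand of chr11:53427922-53430831, was the member whose groups did not overlap. It measured 27.4, 29.4 and 29.96 RPKM (lowest, median, highest) in heterozygous libraries and 30.2, 33.3 and 35.2 RPKM in null libraries. Every null library was above every heterozygous one, though null library 7 exceeded the highest heterozygous library only narrowly. The difference was 0.20 with a standard error of 0.059 (limma, adjusted p = 0.934). Groups were fully separated with null higher in 0.124% of all tested genes and with null lower in 0.0331%, and no member was separated in that second direction.

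Uqcr11, another small complex III subunit (chr10:80402997-80406830, minus strand), measured 37.1, 39.3 and 41.4 RPKM in heterozygous and 41.3, 45.8 and 50.1 RPKM in null libraries. Of the null libraries, 5 of 6 lay above the highest heterozygous one, and the lowest null value fell just inside the heterozygous range. The difference was 0.20 with a standard error of 0.063 (limma, adjusted p = 0.934). Uqcr11 has 2 close pseudogene copies, as given above. The other complex III genes lay lower: Uqcr10 at 0.14, Uqcrb at 0.11, the cytochrome c1 gene Cyc1 at 0.10 and the iron-sulphur protein gene Uqcrfs1 at 0.0096.

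Sdhb, the iron-sulphur subunit of succinate dehydrogenase (chr4:140961203-140979193, plus strand), measured 35.4, 36.8 and 38.5 RPKM in heterozygous and 37.99, 42.8 and 44.2 RPKM in null libraries. Again 5 of 6 null libraries were above all heterozygous libraries. The difference was 0.18 with a standard error of 0.058 (limma, adjusted p = 0.934). Of the other subunits, the flavoprotein gene Sdha was at 0.038, and the membrane anchors Sdhc and Sdhd were at 0.035 and -0.05, each with a standard error of about 0.09, and the difference between subunits was not tested.

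Among complex I genes, Ndufa2 (chr18:36742332-36744557, minus strand) measured 89.6, 97.8 and 102 RPKM in heterozygous and 100, 106 and 115 RPKM in null libraries, with 5 of 6 null libraries above every heterozygous one. Its difference was 0.15 with a standard error of 0.064 (limma, adjusted p = 0.934). Ndufb2, a membrane-arm subunit, measured 5.92, 6.56 and 6.80 RPKM against 6.34, 7.55 and 8.63 RPKM. Ndufa13, also known as Grim19, measured 33.5, 34.4 and 36.5 RPKM against 35.3, 37.7 and 41.2 RPKM. For both genes 4 of 6 null libraries lay above the heterozygous range, with differences of 0.18 and 0.13 (limma, adjusted p = 0.934 for both).

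In complex IV, Ndufa4 measured 163, 168 and 173 RPKM in heterozygous and 166, 190 and 203 RPKM in null libraries (difference 0.15, standard error 0.067, limma, adjusted p = 0.934). Its heterozygous libraries were tightly grouped and 5 of 6 null libraries lay above them. In complex V, Atp5j2, the f subunit of the membrane part, measured 44.9, 46.9 and 49.1 RPKM against 43.6, 53.7 and 68.6 RPKM (difference 0.22, standard error 0.096, limma, adjusted p = 0.934). Here the null libraries spread widely, from below the lowest heterozygous library to far above the highest. Atp5j2, Ndufb2 and Ndufa13 were picked out after their values were seen.

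**Figure D3:**
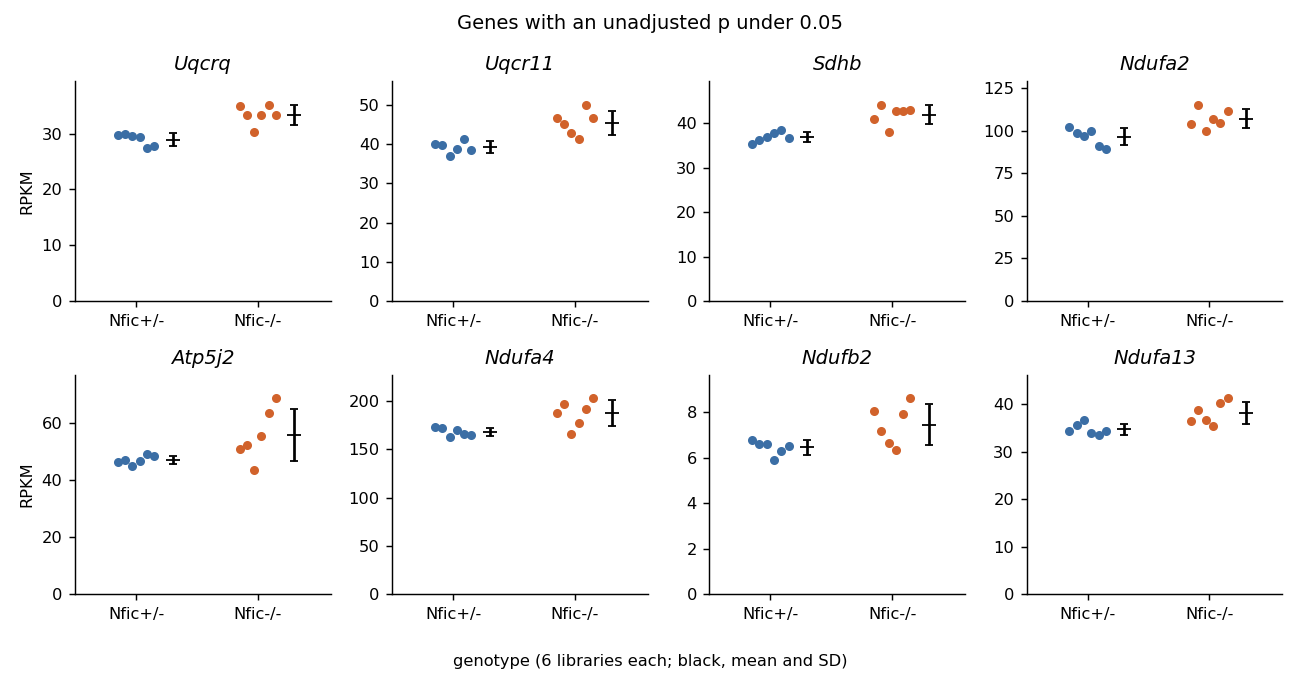
RPKM of the 8 genes with an unadjusted p under 0.05 in each library (6 per genotype), with black marks for the mean and SD, on axes that start at 0. Uqcrq alone has no overlap between groups, and in the others 1 or 2 null libraries do not exceed the highest heterozygous value.

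The level of the members varied by more between libraries of a genotype than between genotypes. The median deviation of the 81 genes from their own 12-library mean ran from -0.138 to 0.110 in heterozygous and from -0.062 to 0.173 in null libraries. Heterozygous library 6 had 59 of 81 members above their mean, while heterozygous libraries 5 and 7 had 8 each. Null library 9 had 79 and null library 10 had 68, while null libraries 6 and 8 had 24 and 22. The summed level of the members was 3561 ± 214 RPKM (SD, n = 6) in heterozygous and 3793 ± 177 RPKM (SD, n = 6) in null libraries. Only null library 9, at 4060 RPKM, exceeded the highest heterozygous library, at 3952 RPKM. Heterozygous library 6 and null libraries 9 and 10 were also high over all tested genes, with medians of 0.198, 0.147 and 0.141, and low in Amelx reads at 3.40, 4.86 and 5.82%. Heterozygous library 5 and null libraries 6 and 8 lay at the other end, with all-gene medians of -0.221, -0.169 and -0.097. Their Amelx reads were 13.5, 12.7 and 9.97%, and 8, 24 and 22 of 81 members were above their mean. Not every library followed this pattern. Heterozygous library 10 had an all-gene median of 0.153 and 4.39% Amelx reads with 40 of 81 members above their mean, and null library 5 had -0.021 and 8.84% with 62 above. RPKM values are shares of a library, and the part of the Amelx share in these levels was not tested. Relative to the median of all genes in the same library, the members ran from -0.155 to 0.083 in heterozygous and from -0.027 to 0.127 in null libraries.

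**Figure D4:**
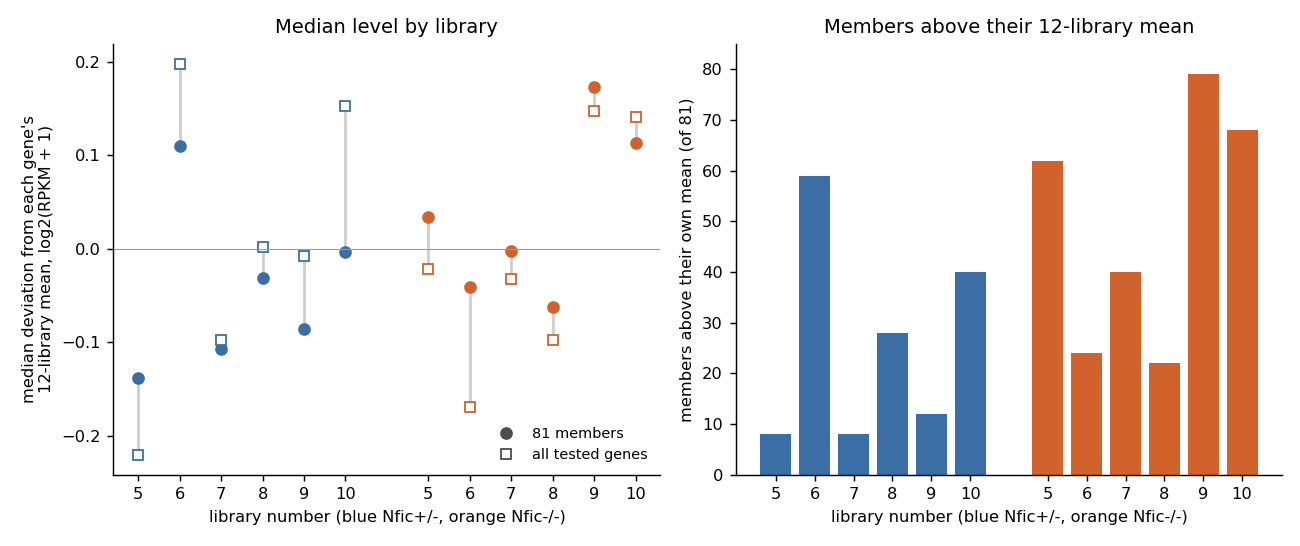
Left, median deviation from each gene's 12-library mean on the log2(RPKM + 1) scale for the 81 members (circles) and for all 12094 tested genes (squares) in each library. Right, number of the 81 members above their own mean, from 8 in heterozygous libraries 5 and 7 to 79 in null library 9.

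Across all 12 libraries the members were steadier than most genes, with a median SD of 0.123 on the log2(RPKM + 1) scale against 0.196 for all tested genes. The tissue is a mixture, and in bulk RNA fewer cells of a type and less RNA per cell cannot be told apart. Enamel epithelium markers were above 0 between genotypes for 8 of 10 genes (median 0.21, summed level 37493 to 143180 RPKM in heterozygous and 54299.7 to 141627 RPKM in null libraries). Odontoblast and mesenchyme markers were below 0 for 10 of 10 (median -0.54, 8 of them with an unadjusted p under 0.05, summed level 3702 to 5232 and 2015 to 4402 RPKM). Macrophage markers were below 0 for 5 of 5 tested genes and endothelial markers for 6 of 6, both with a median of -0.42. The part of cell mixture in the members' differences was not tested. Among members, Ndufa1 was highest in the libraries with most Amelx reads, at 159 RPKM in heterozygous library 5 and 178 RPKM in null library 6. It was lowest, at 104 RPKM, in heterozygous library 6, which had the fewest. Ndufa2 was likewise highest of each genotype in heterozygous library 5 (102 RPKM) and null library 6 (115 RPKM). Its lowest value, 89.6 RPKM, was in heterozygous library 10. These patterns were picked out after the values were seen.

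Complex IV and the ATP synthase rotor have alternative isoforms with known tissue patterns. For most of them the ubiquitous form made up nearly all transcripts. Cox6a2, the heart and muscle form of subunit 6a, was 0.136% of the Cox6a pair in heterozygous and 0.179% in null libraries. Cox7a1, the muscle form of subunit 7a, was 0.349% and 0.428% of its set, in which Cox7a2 took 44.2% and 45.0% and the supercomplex factor Cox7a2l took 55.5% and 54.6%. Cox7b2, Cox8b and Cox8c were near the floor, with means of 0.01995, 0.0781 and 0.0233 RPKM. Of the 86 members, 5 were below the mean of 1 RPKM needed for testing: these 3 with Cox6a2 and Cox7a1. The testis form Cox6b2 was 4.51 ± 1.33% of its pair in heterozygous and 4.77 ± 1.22% in null libraries (SD, n = 6).

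The muscle forms were highest in library 9 of one or the other genotype. Null library 9 had 0.695 RPKM of Cox6a2, against 0.0381 to 0.246 RPKM in the other 11, and 1.40 RPKM of Cox7a1, against 0.196 to 1.03 RPKM in the others, followed by heterozygous library 8 (1.03 RPKM) and null library 8 (0.936 RPKM). Cox8b was highest in heterozygous library 9 (0.315 RPKM), then in null library 9 (0.235 RPKM), and at most 0.0916 RPKM elsewhere. Skeletal muscle markers summed to 48.6 RPKM in that library and to 3.59 to 9.66 RPKM in the others, with 3 of the 10 markers at a testable level. Their part in these isoforms was not tested.

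Cox4i2, the form of subunit 4 associated with lung, vessel walls and oxygen sensing, was the exception among the alternative forms. It lies on the plus strand at chr2:152754173-152765037. It measured 17.04, 25.1 and 37.3 RPKM in heterozygous and 14.4, 17.5 and 38.7 RPKM in null libraries, which makes it 10.2 ± 2.26% and 7.95 ± 3.15% of the Cox4i pair (SD, n = 6). Values of 14.4 to 17.7 RPKM were found in null libraries 5 to 8, while null library 10 was the highest of all 12, so the groups overlapped over nearly their whole range. The difference of -0.34 had a standard error of 0.236 (limma, adjusted p = 1) and was the lowest of any member. Mural cell markers (pericytes and vascular smooth muscle) summed to 47.6 to 124 RPKM in heterozygous and 26.6 to 90.5 RPKM in null libraries, highest in library 10 of each genotype, as was Cox4i2. The same libraries were highest in macrophage markers (56.8 and 65.8 RPKM) and in Nfic (24.5 and 16.5 RPKM). Of the 8 mural markers tested, 6 were below 0 (median -0.56) and 3 had an unadjusted p under 0.05. These were Rgs5 at -0.78, Kcnj8 at -1.004 and Notch3 at -0.46. The remaining tested markers ran from -0.72 for Pdgfrb to 0.051, with Tagln at -0.015 and Cspg4 at 0.028. All of these but Rgs5 were named after their values were seen. The part of mural cells in the Cox4i2 values was not tested.

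**Figure D5:**
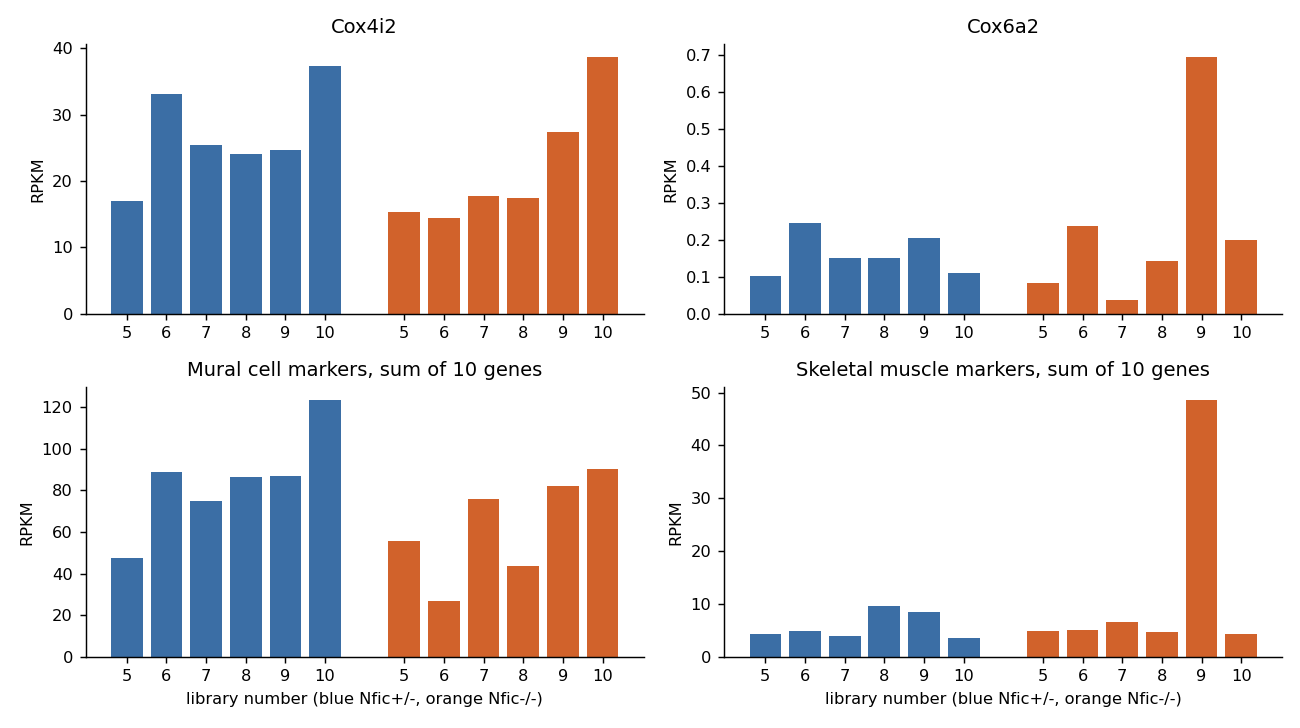
RPKM by library (numbers 5 to 10, blue for Nfic+/- and orange for Nfic-/-) of alternative isoforms beside the marker sums given in the text, with bars starting at 0. Cox4i2 and the mural marker sum are both highest in library 10 of each genotype, and Cox6a2 and the muscle marker sum both peak in null library 9.

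The c ring of ATP synthase is built from a single protein encoded by several genes that differ in their targeting peptides. Atp5g3 supplied 72.6 ± 1.54% of these transcripts per length in heterozygous and 72.5 ± 0.970% in null libraries. Atp5g2 supplied 22.2% in both, and Atp5g1 5.19% and 5.35%. These proportions differed between genotypes by less than the spread between libraries. Ndufa4l2, the hypoxia-induced relative of Ndufa4, was 2.18 ± 0.434% of the Ndufa4 pair in heterozygous and 1.91 ± 0.568% in null libraries (SD, n = 6).

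Besides Cox4i2, 4 members were below 0, all by less than their standard errors: Sdhd (-0.05), Ndufa4l2 (-0.05), the flavoprotein-arm gene Ndufv3 (-0.02) and Ndufa12 (-0.006). Ndufa12, the last of these, ran from 3.87 to 6.21 RPKM in heterozygous and from 3.09 to 5.81 RPKM in null libraries.

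Genes that build or surround the chain had smaller medians than the subunits. Of 41 tested assembly factors, 33 were above 0 with a median of 0.040, and 1 had an unadjusted p under 0.05. This was Pet100, an assembly factor for complex IV listed in the table as 2900053A13Rik. It measured 4.14, 4.67 and 5.23 RPKM in heterozygous and 5.16, 6.11 and 7.80 RPKM in null libraries, with 5 of 6 null libraries above the heterozygous range (difference 0.35, standard error 0.096, limma, adjusted p = 0.934). The copper chaperone gene Cox17 was at 0.18. Among 12 carriers and partners of the chain, 11 were above 0 with a median of 0.060, and the ATP synthase-associated gene Usmg5 had an unadjusted p under 0.05. Usmg5 measured 27.7, 28.8 and 33.7 RPKM against 30.1, 33.7 and 41.2 RPKM (difference 0.23, standard error 0.093, limma, adjusted p = 0.934), with 3 of 6 null libraries above the heterozygous range. The supercomplex gene Higd2a was at 0.17.

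Upstream regulators had a median near 0. Of 13 tested regulators of mitochondrial biogenesis, 5 were above 0 and the median was -0.011. Ppargc1a, the PGC-1alpha coactivator, averaged 1.04 RPKM in heterozygous and 1.34 RPKM in null libraries, and Tfb1m, a factor that modifies mitochondrial ribosomal RNA, averaged 2.51 and 2.84 RPKM. The tricarboxylic acid cycle had 14 of 17 genes above 0 with a median of 0.048, including Mdh2 at 0.086, while Suclg2 was at -0.19. Glycolysis had 8 of 15 above 0 with a median of 0.033. Its genes with the smallest p were Hk2 at 0.28 and the glucose transporter Slc2a1 at 0.19. None of these lists held a gene with an unadjusted p under 0.05, and the differences between lists were not tested.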

How the data were processed

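Total RNA from the apical part of first lower molar germs was sequenced, per the labels. Reads were aligned with TopHat2 to mm10, per the submitters' processing notes. No source used here names the counting tool or its annotation. The deposited values are log2 of RPKM, as the authors normalized them, and not the linear RPKM that the planned test assumed. They were therefore converted to RPKM before the test on log2(RPKM + 1). Genes with no reads carry a floor of 0.9 reads. All 10352 low values checked (100%) came out as whole reads within 0.02 reads. The test was limma 3.58.1 (R 4.3.3) with genotype as its term and a variance trend, over genes averaging at least 1 RPKM. Benjamini-Hochberg adjustment used a threshold of 0.05. No count test was made. The procedure was tested on simulated data.

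The members and lists were chosen with earlier results of these data known. Genes named are the highest and lowest of each complex, the 4 smallest p in each direction, the isoform sets, the 5 highest members, and 2 genes of each other list. Some genes that this rule picks are not reported here. Ndufs5, Ndufa12 and others identified as such were added after their values were seen. Sdha, Cyc1, Uqcr10, Uqcrfs1, Cox5a, Atp5k and further genes named for their copies or motifs also lie outside the rule. The subset of genes at 20 RPKM or more, the pseudogene limit and the promoter motifs were also chosen then. Coordinates are from GENCODE M21 (GRCm38), matched for 24987 genes and not for 912, and promoter sequences from RefSeq (GRCm38.p6). Pseudogenes were matched with BLAST 2.17.0. Tables and figures used Python 3.11.15, numpy 2.4.6, pandas 2.3.3, scipy 1.17.1 and matplotlib 3.10.9. Scaling, filters, weights, a replicate block and left-out libraries were tried as alternatives.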

Additional observations from a re-analysis of the deposited data

Results flagged for a closer look

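Each of the 81 tested members was checked in each genotype for a library standing apart, by the gap of the highest or lowest of 6 values to its neighbour. Of 162 such groups 7 stood apart, where chance alone gives about 1 in 20. The check was first made on the named members and widened to all after their result was seen.

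Heterozygous library 6 was the highest of its group for Cox5a (78.9 RPKM), Uqcr10 (82.8 RPKM) and Uqcrfs1 (57.8 RPKM), and 59 of 81 members were above their own mean there. Null library 8 was the lowest of its group for Atp5k, at 19.7 RPKM. Null library 7 was the lowest of its group for Uqcrq, at 30.2 RPKM.

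Ndufs5, an accessory complex I subunit (chr4:123712710-123718202, minus strand), stood apart in both genotypes and in libraries of the same number. It measured 8.15 RPKM in heterozygous library 7 and 7.68 RPKM in null library 7, against 3.63 to 4.31 RPKM in the other 10 libraries. The mean of the pair was 2.01 times that of the others. Ndufs5 has 1 close pseudogene copy. No other complex I gene stood apart in these libraries.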

How the results depend on the processing

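No member passed the adjusted threshold under any setting run, and the members' median difference stayed between 0.053 and 0.125. The median of all tested genes moved as well, from -0.045 without heterozygous library 5 to 0.063 without both libraries numbered 6. The latter setting also gave the members' 0.125, and 74.2% of all genes were above 0 there. With quantile normalization the members' median was 0.059, against 0.023 for all genes. The count of 8 members higher at an unadjusted p under 0.05 became 16 with libraries centred on the median gene (4.72% of all genes), 22 with array weights (9.004%), 0 in libraries 5 to 7, 4 in libraries 8 to 10 and 2 without libraries 8 and 9, where fewer samples enter. The count lower, 0, became 1 with array weights (9.71% of all genes) and 1 in libraries 5 to 7 (3.21%). It was also 1 without null library 10 (6.91%). Leaving out 1 library at a time gave 3 to 13 higher and 0 to 1 lower, and Nfic differences of -0.63 to -0.41, with an exact permutation p above 0.05 without heterozygous library 6 (0.0519) or 10 (0.0628) or null library 5 (0.0541) or 6 (0.0541). Array weights called 17 genes of all tested, among them 0 members.

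Small differences changed sign: Ndufv3 was 0.0086 when centred, 0.018 in libraries 8 to 10 and 0.023 without both libraries numbered 6; Atp5a1 was -0.040 with quantile normalization; Ndufa4l2 was 0.032 with array weights and 0.082 without both libraries numbered 6; Sdhd was 0.019 without the latter; Atp5g2 was -0.018 in libraries 5 to 7 and -0.026 without libraries 8 and 9. With 1 library left out, Sdhc ranged from -0.0083 to 0.079, Atp5a1 from -0.0053 to 0.0805, Cox7a2l from -0.00049 to 0.124, Ndufa4l2 from -0.124 to 0.045 and Ndufv3 from -0.045 to 0.0023. The median of complex II ranged from -0.0019 to 0.087. With any 1 library left out, Uqcrq stayed between 0.18 and 0.23, Uqcr11 between 0.17 and 0.23 and Sdhb between 0.16 and 0.21. The cause was not tested.

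With a replicate block, 5 members were higher (3.08% of all genes). The deviations of same-numbered libraries correlated at 0.492, 0.0050, 0.310, 0.667, 0.688 and 0.802 for numbers 5 to 10, and the series describes 6 littermate pairs, but no label states which number marks which pair, so the numbers were not taken to pair the libraries. Read as pairs, after the values were seen, null was higher in 6 of 6 numbers for 10 of 81 members, Sdhb and Uqcrq among them (2.69% of all genes), and lower in 6 of 6 for 0 members (2.68%). Nfic was lower in 6 of 6. Libraries numbered 8, 9 and 10, 3 of 6 numbers, correlated best with their own number.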

Other observations

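Genes with the pattern of Ndufs5, high in both libraries numbered 7, were counted after its values were seen. Of 12094 tested genes, 4 were at least 1.5 times higher in both libraries numbered 7 than in any of the other 10: Ndufs5, the ribosomal protein gene Rps3a (91.7 RPKM in both, against 34.6 to 58.6) and the keratin genes Krt13 (4.76 and 26.6 RPKM, against 0.444 to 1.17) and Krt4 (3.53 and 18.9 RPKM, against 0.431 to 0.877). Krt4 and Krt13 are keratins of the lining of the mouth. The same count gave 0 genes for numbers 5, 6 and 8, 4 for number 9 and 41 for number 10.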
